A study of Homo sapiens with 27 samples.

Results

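The genes described here were 39 translation initiation factors and their close partners, taken by gene symbol from the transcript counts of RM82 cells. All 39 had counts, on 391 of the 93530 transcripts that were counted. Of those 93530 transcripts, 86362 could be matched to a gene in GENCODE release 44, and they belonged to 18776 genes. RM82 is a human cell line established from Ewing sarcoma, a tumour of bone and soft tissue. Of the 27 samples in the series, 6 were RM82 libraries sequenced as full-length cDNA on the Oxford Nanopore platform, in which each molecule carried unique molecular identifiers (UMIs) built from homotrimers. By the deposited labels, 3 libraries (CLK-labelled) came from cells given SGC-CLK-1, a chemical inhibitor of the CLK kinases that phosphorylate splicing factors. The other 3 (DMSO-labelled) came, by their labels, from cells given the solvent alone, and both treatments lasted 24 h. No genotype differed between the groups, and the dose is not given in the sources used here. The study states in general that its experiments were repeated independently, without saying for these libraries whether the cultures or only the preparations were separate. The p-values measure the spread between these libraries, which may be technical.

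The total count was 666702, 362826 and 373004 in the CLK-labelled libraries and 416352, 523456 and 372876 in the DMSO-labelled ones. The initiation factors took 1.03% ± 0.023 (SD, n = 3) of the counts in the CLK-labelled group and 1.10% ± 0.057 (SD, n = 3) in the DMSO-labelled group. Of the 10 Ewing sarcoma markers listed, 8 had counts, led by CCND1 with 1464 counts over the 6 libraries and BCL11B with 1373, whereas FLI1 and NKX2-2 were not listed in these counts. STEAP1 had 221 counts, and NR0B1, LIPI and PRKCB had 20, 31 and 55, too few to be tested. CD99, the surface protein used to recognise the tumour, had 74, 34 and 43 counts in the CLK-labelled group and 66, 53 and 65 in the DMSO-labelled group. CCND1, EWSR1, CD99, STEAP1 and BCL11B were tested. CCND1 was lower in every CLK-labelled library (-0.45 ± 0.20, log2, SE; unadjusted p = 0.0370, adjusted p = 0.323 in edgeR) and EWSR1 higher in every one (0.55 ± 0.24; unadjusted p = 0.0358, adjusted p = 0.318). Of all tested genes, 13.9% had an unadjusted p under 0.05, and 9.71% were lower and 10% higher in every CLK-labelled library. CD99, STEAP1 and BCL11B overlapped between the groups, at -0.50 ± 0.27, -0.30 ± 0.29 and -0.0057 ± 0.21 (log2, SE). Of the plasma cell markers, SDC1, TNFRSF17, MZB1, IGHG1 and IRF4 had no counts, JCHAIN had 1, and XBP1, which other cells also express, had 10, 1 and 0 in the CLK-labelled group and 0 in each DMSO-labelled library. Of the T cell markers, CD3D, CD3E and CD2 had no counts and LCK had 1. CD3G, which encodes a CD3 chain, had 2, 1 and 1 counts in the CLK-labelled group and 6, 8 and 6 in the DMSO-labelled group, whereas the leukocyte gene PTPRC had 7, 8 and 12 against 8, 3 and 4. Of the epithelial markers, KRT19 had no counts, EPCAM had 4, all in SGC-CLK-1 replicate 1, and CDH1 had 7, 1 and 5 against 2, 4 and 4. None of these had enough counts to be tested.

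The direction of every difference below rests on the deposited labels. The FRG2 transcript ENST00000645766, which the study used as an example, had 64, 44 and 60 counts in the CLK-labelled libraries and 96, 88 and 95 in the DMSO-labelled ones. In the study's own plot of FRG2 the group names run the other way, and which of the assignments holds could not be settled from the counts. The groups are therefore called CLK-labelled and DMSO-labelled. Single libraries are named by group and replicate number, such as SGC-CLK-1 replicate 1, and these names too follow the labels only.

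Translation of most mRNAs begins when eIF4F, made of the cap-binding protein eIF4E, the scaffold eIF4G and a helicase, recruits the small ribosomal subunit to the cap. eIF3, the largest of the initiation factors, sits on that subunit and holds the complex together, while eIF2 brings the initiator tRNA and is recharged with GTP by eIF2B. eIF1, eIF1A and eIF5 control scanning and the choice of start codon, and eIF5B joins the large subunit. In tumour cells the supply of these factors, eIF4E above all, is known to bear on growth.

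Among the tested initiation factor transcripts, the one that differed most was EIF3B-209 (ENST00000468250), a retained-intron form of EIF3B. EIF3B is a scaffold subunit of eIF3 that carries an RNA recognition motif. EIF3B (ENSG00000106263) lies on the forward strand at chr7:2354086-2380745 of GRCh38. EIF3B-209 has 3 exons and 529 bases and spans chr7:2364397-2367119, within the first part of the gene. Compared with the main protein-coding form EIF3B-201 (ENST00000360876), it starts inside exon 6, keeps the whole 76-base intron between exons 7 and 8 (chr7:2366449-2366524), and runs 74 bases past exon 9 into the next intron (chr7:2367046-2367119). Together these intronic parts make up 150 of its 529 bases (28.4%). The exons are those of GENCODE release 44, which holds version 2 of this transcript, while the counts were made on version 1, and the exons of version 1 were not compared.

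The sequences that set EIF3B-209 apart from the spliced mRNA are shown, read from GRCh38 on the forward strand, with 20 bases of EIF3B-201 exon before each intronic part and 20 bases after it. In the first, capitals mark the GT and AG at the ends of the kept intron. In the second, capitals mark the genome-encoded run of 17 A with which the transcript ends.
EIF3B retained intron, chr7:2366429-2366544: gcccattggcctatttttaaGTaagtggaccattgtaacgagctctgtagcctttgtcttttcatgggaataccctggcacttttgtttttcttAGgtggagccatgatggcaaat
EIF3B intronic end, chr7:2367026-2367139: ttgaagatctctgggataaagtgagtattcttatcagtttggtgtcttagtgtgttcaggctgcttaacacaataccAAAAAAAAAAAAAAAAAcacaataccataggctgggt
The run of A fills chr7:2367103-2367119 and its last base is the last base of the transcript. Neither AATAAA nor ATTAAA, the usual signals for poly(A) addition, was present in the last 50 bases on the transcript's strand. Over all tested transcripts, 355 of 645 retained-intron transcripts (55.0%) and 4394 of 5758 protein-coding transcripts (76.3%) held at least 1 of these hexamers there. A run of at least 8 A within 20 bases of the end was present in 112 of the 645 retained-intron transcripts (17.4%) and in 199 of the 5758 protein-coding transcripts (3.46%). The cDNA was primed with oligo(dT), and whether reads of EIF3B-209 were primed at this run was not tested.

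**Figure D1:**
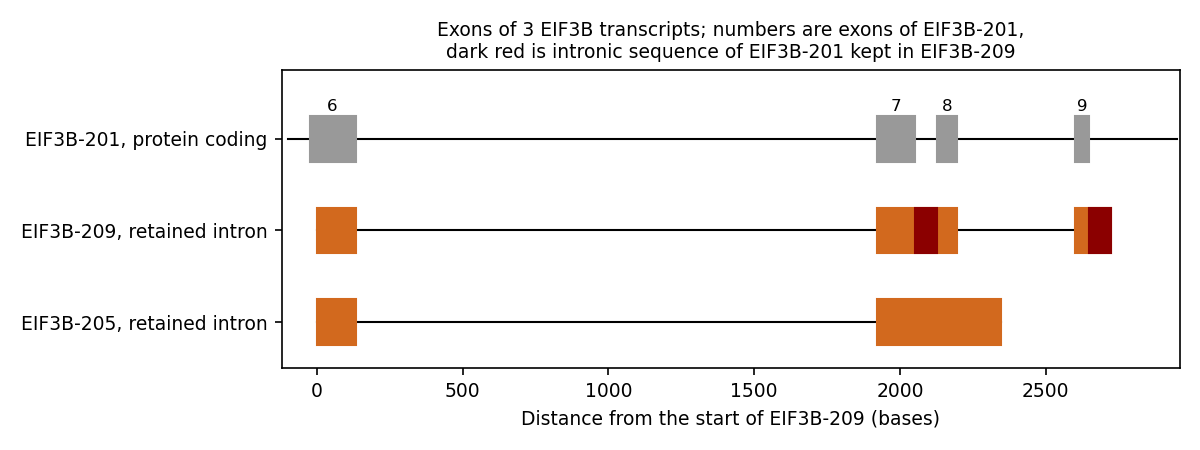
Exons of EIF3B-201, EIF3B-209 and EIF3B-205 as boxes, with introns as lines, against the distance in bases from the start of EIF3B-209. The numbers above EIF3B-201 are its exons, and the dark red parts of EIF3B-209 are the 76 and 74 bases that are intronic in EIF3B-201.

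EIF3B-209 had 6, 5 and 7 counts in the CLK-labelled libraries and 40, 61 and 27 in the DMSO-labelled ones. Every CLK-labelled library was below every DMSO-labelled library, although SGC-CLK-1 replicate 1 had the largest total of all 6 libraries. On the CPM scale (counts on a transcript per 1000000 counts on tested transcripts, after scaling by the trimmed mean of M values), the levels were 20.1 ± 7.08 (SD, n = 3) and 137 ± 32.6 (SD, n = 3), a 6.83-fold difference between the group means. The log2 fold change was -2.85 with a standard error of 0.35 (adjusted p = 6.24e-06, edgeR quasi-likelihood test with Benjamini-Hochberg adjustment over 7840 transcripts). It was the only 1 of 89 tested initiation factor transcripts past an adjusted p of 0.05, where 3.95% of all tested transcripts (2.1% as lower ones) and 6.67% of the 645 tested retained-intron transcripts (5.12% as lower ones) were past it. Leaving out single libraries gave log2 fold changes from -3.09 to -2.52. DESeq2 gave -2.85 with no adjusted p, and with at least 10 counts required in every library the transcript could not be tested. With 5 to 7 counts in the CLK-labelled libraries, it passed the main filter (minimum count 10) only through the DMSO-labelled libraries, where it was high. Its place among the tested transcripts thus depended on the difference itself. With no filter the log2 fold change was -2.88.

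The other EIF3B transcripts were counted at overlapping levels. Together they had 51, 33 and 12 counts in the CLK-labelled group and 30, 23 and 32 in the DMSO-labelled group. The full-length protein-coding forms EIF3B-201 and EIF3B-202 had 12, 9 and 2 counts and 12, 8 and 2 counts in the CLK-labelled group, against 6, 7 and 9 counts each in the DMSO-labelled group. Their near-equal counts in each library are those of 2 transcripts that share most of their sequence, where a read can be counted on both. EIF3B-205 (ENST00000463026), the other retained-intron form that starts in exon 6, had 4, 3 and 1 counts against 2, 4 and 0.

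**Figure D2:**
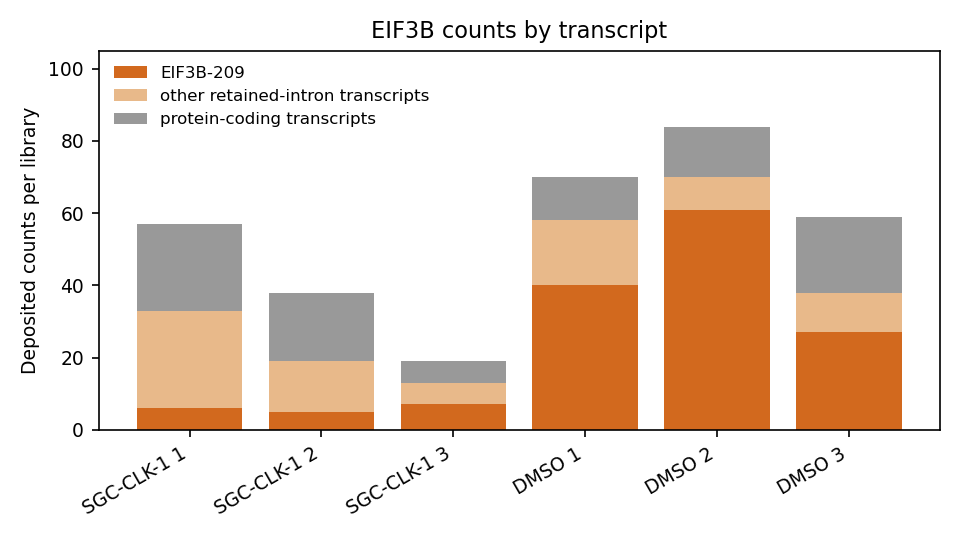
Deposited counts on EIF3B in each of the 6 libraries, stacked by transcript. EIF3B-209 holds 6, 5 and 7 counts in the CLK-labelled libraries and 40, 61 and 27 in the DMSO-labelled ones, while the stacks above it overlap between the groups.

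As a share of EIF3B counts, EIF3B-209 held 10.5% (95% Wilson interval 4.91 to 21.1), 13.2% (5.75 to 27.3) and 36.8% (19.1 to 59.0) in the CLK-labelled libraries. In the DMSO-labelled ones it held 57.1% (45.5 to 68.1), 72.6% (62.3 to 81.0) and 45.8% (33.7 to 58.3). The intervals cover counting error only and treat every count as a separate molecule. As a read can be counted on several EIF3B transcripts, the totals may hold some molecules more than once, which makes shares and intervals approximate. The groups did not overlap, but SGC-CLK-1 replicate 3, with 19 EIF3B counts in all, had an interval that overlapped those of DMSO replicates 1 and 3 (exact two-sided permutation test, p = 0.1, the smallest that 3 against 3 can give). All 7 retained-intron forms together held 58.8% ± 9.24 (SD, n = 3) of the counts in the CLK-labelled group and 76.9% ± 10.8 (SD, n = 3) in the DMSO-labelled group, and these shares overlapped (exact permutation test, p = 0.2). With EIF3B-209 left out of both the retained-intron counts and the total, the other retained-intron forms held 52.9, 42.4 and 50.0% of the remaining EIF3B counts against 60.0, 39.1 and 34.4%, which overlapped (exact permutation test, p = 0.7). In the test of transcript classes within a gene, EIF3B had an adjusted p of 1.00 (edgeR diffSpliceDGE).

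Summed over its transcripts, EIF3B measured 98.2, 119 and 57.7 CPM in the CLK-labelled group and 196, 191 and 197 CPM in the DMSO-labelled group (at gene level, CPM is taken over the counts of tested genes). The difference of -1.08 ± 0.28 (log2, SE) had an unadjusted p = 0.0017 and an adjusted p of 0.0981 in edgeR's quasi-likelihood test over 6344 genes. Without EIF3B-209 in the sum it was -0.06 ± 0.40 (log2, SE; adjusted p = 0.966), so the lower sum rested on this transcript. In bulk libraries, less RNA per cell and fewer cells that make it cannot be told apart.

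At gene level, 38 of the 39 genes passed the filter on low counts, the exception being EIF2B1, the alpha subunit of eIF2B. None of the 38 was past an adjusted p of 0.05 in edgeR, where 0.236% of all 6344 genes were. DESeq2 called 1, EIF5B. At an unadjusted p under 0.05 there were 5 of 38, all lower in the CLK-labelled group, where 13.9% of all genes were past that p, 6.97% lower and 6.89% higher. The 5 were EIF3B, EIF3E and EIF3H of eIF3, and EIF5B and EIF6, which act on the large ribosomal subunit. For 6 genes (these 5 and EIF4E) every CLK-labelled library was below every DMSO-labelled library, and for 1 gene, EIF4G2, every one was above, where 9.71% of all genes were lower and 10% higher in this way. The median log2 fold change of the 38 genes was -0.18, with 23 below 0, and that of all genes was -0.0012. When only the highest-counted transcript of each gene was used, the median of the members was 0.0016. Over the 89 tested transcripts of these genes the median was 0.13 (-0.0058 over all tested transcripts). This transcript median turned to -0.056 without DMSO replicate 2 and to -0.078 with no filter, and was 0.039 without SGC-CLK-1 replicate 3. Without DMSO replicate 3 the median of the 38 was -0.03, and without SGC-CLK-1 replicate 2 it was -0.12.

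**Figure D3:**
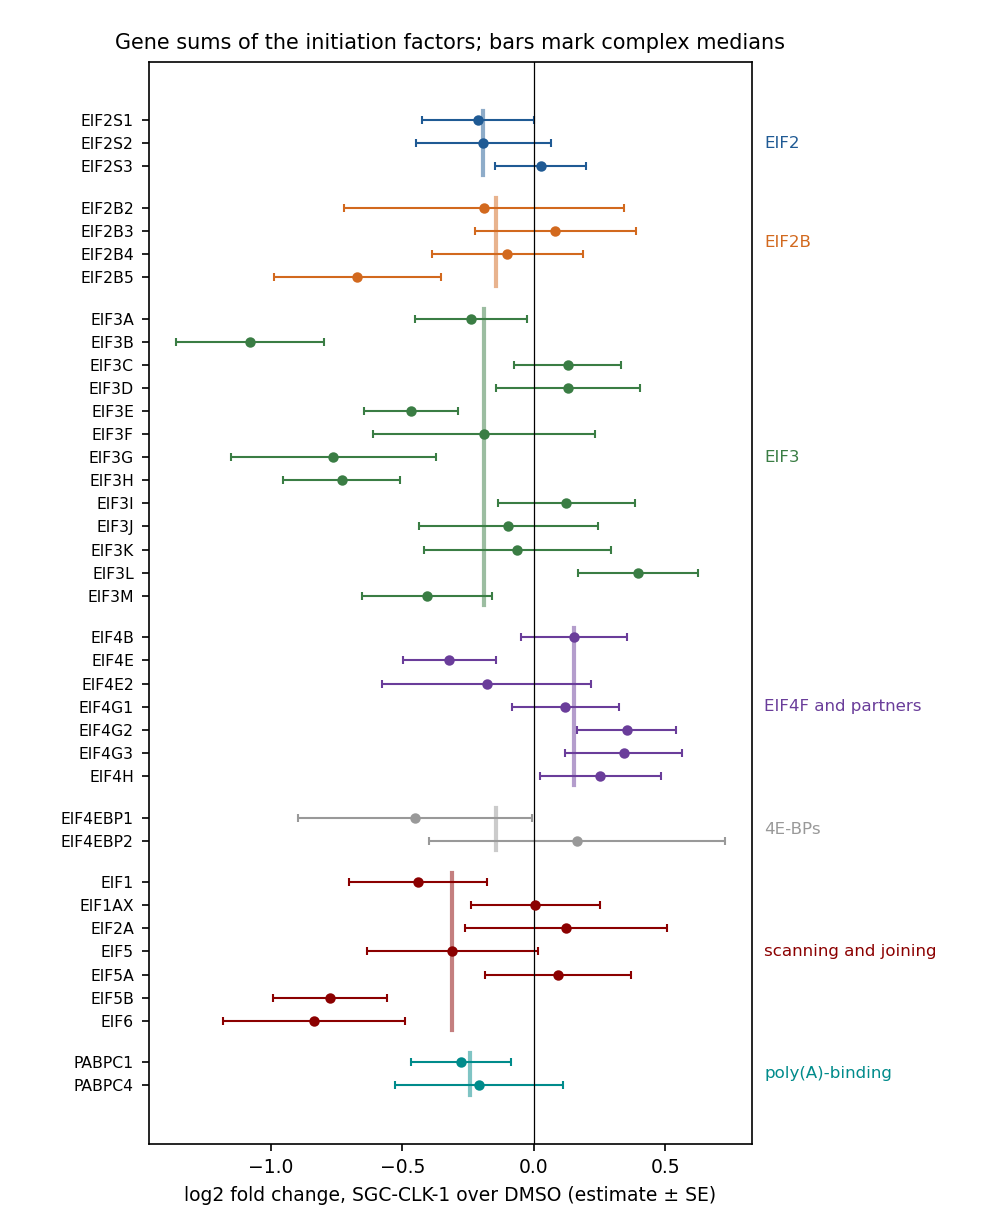
Log2 fold change between the CLK-labelled group and the DMSO-labelled group for the 38 tested genes, as estimate and standard error from edgeR, ordered by complex. The vertical coloured bars mark the complex medians, -0.19 for EIF3 and for EIF2 and 0.15 for EIF4F and partners, and EIF3B has the lowest value, -1.08.

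eIF3 was represented by all 13 subunits, EIF3A to EIF3M. Of these, 9 were below 0 and 4 above, with a median of -0.19. EIF3E and EIF3H belong to the octamer of subunits with PCI or MPN domains that forms the body of eIF3. EIF3E (ENSG00000104408, chr8:108162787-108443496, reverse strand) measured 749, 684 and 783 CPM in the CLK-labelled group and 1025, 1106 and 933 CPM in the DMSO-labelled group. All 3 CLK-labelled libraries were below the others, and the difference was -0.47 ± 0.18 (log2, SE; unadjusted p = 0.0197, adjusted p = 0.248). EIF3H (ENSG00000147677, chr8:116642130-116766925, reverse strand) measured 475, 275 and 340 CPM against 552, 628 and 646 CPM. Its groups did not overlap either, with SGC-CLK-1 replicate 1 nearest to the DMSO-labelled group, and the difference was -0.73 ± 0.22 (log2, SE; unadjusted p = 0.0053, adjusted p = 0.144).

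The 8 octamer subunits together had a median of -0.21, with 6 below 0. EIF3M, another PCI subunit, was at -0.40 ± 0.25 and EIF3A, the large subunit at the core of the octamer, at -0.24 ± 0.21, whereas EIF3C was at 0.13 ± 0.20 and EIF3L at 0.40 ± 0.23 (log2, SE), none of which passed a test. EIF3C can share reads with the near-identical copy EIF3CL, which had 119, 87 and 58 counts against 65, 75 and 66, so its values are uncertain. In the module of EIF3B, EIF3G and EIF3I, EIF3G was at -0.76 ± 0.39 and EIF3I at 0.12 ± 0.26. EIF3D, which can bind the cap of some mRNAs, was at 0.13 ± 0.27, and EIF3J, the loosely bound subunit, at -0.10 ± 0.34.

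Among the factors of scanning, start-codon recognition and subunit joining, with which EIF2A and EIF5A were grouped although EIF5A is known mainly for elongation and termination, EIF5B had the lowest p. EIF5B (ENSG00000158417, chr2:99337371-99401326, forward strand), the GTPase that joins the large subunit, measured 720, 769 and 838 CPM in the CLK-labelled group and 1059, 1128 and 1796 CPM in the DMSO-labelled group. DMSO replicate 3 stood well above the rest, and the other DMSO libraries were still above all CLK-labelled libraries. The difference was -0.77 ± 0.22 (log2, SE; unadjusted p = 0.0030, adjusted p = 0.122). Without DMSO replicate 3 it was -0.50 (adjusted p = 0.286), and DESeq2 gave -0.78 with an adjusted p of 0.0324. The transcripts EIF5B-201 and EIF5B-205 carried nearly the same counts in every library, 204, 120 and 136 against 182, 238 and 260 for the first and 205, 115 and 137 against 181, 238 and 256 for the second, and a read can be counted on both, so the gene sum may hold some molecules more than once. Each had a log2 fold change of -0.66 (adjusted p = 0.0681 and 0.0670 in edgeR).

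EIF6 (ENSG00000242372, chr20:35278907-35284985, reverse strand), which keeps the large subunit from joining too early, measured 55.1, 37.5 and 39.5 CPM against 70.0, 72.8 and 99.9 CPM, from 12 to 32 counts a library. The groups did not overlap, and the difference was -0.84 ± 0.35 (log2, SE; unadjusted p = 0.0297, adjusted p = 0.299). The others of this group had smaller values. EIF1 was at -0.44 ± 0.26 and EIF5, the activator of the eIF2 GTPase, at -0.31 ± 0.32, whereas EIF1AX, EIF2A and EIF5A were at 0.01 ± 0.25, 0.12 ± 0.38 and 0.09 ± 0.28 (log2, SE). None of these 5 passed a test.

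**Figure D4:**
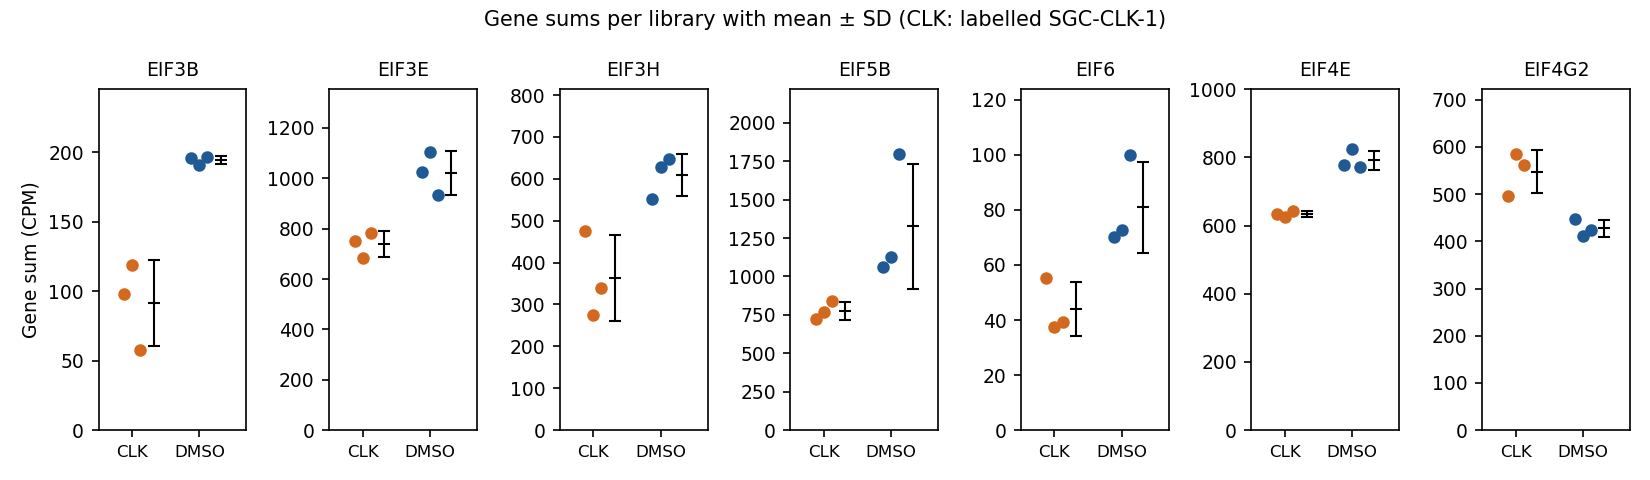
Gene sums in CPM for 7 genes whose groups did not overlap, 1 point per library, with the mean and SD beside each group of 3. EIF3B, EIF3E, EIF3H, EIF5B, EIF6 and EIF4E are lower in every CLK-labelled library, and EIF4G2 is higher (496, 584 and 562 CPM against 448, 412 and 423 CPM).

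In the eIF4F group, of 7 tested genes (EIF4B, EIF4E, EIF4E2, EIF4G1, EIF4G2, EIF4G3 and EIF4H), 5 were above 0 and 2 below, with a median of 0.15, where 50.1% of all genes were below 0. None was past an unadjusted p of 0.05. The scaffolds EIF4G1, EIF4G2 and EIF4G3 were at 0.12 ± 0.20, 0.35 ± 0.19 and 0.34 ± 0.22, and the helicase partners EIF4B and EIF4H at 0.15 ± 0.20 and 0.25 ± 0.23 (log2, SE). EIF4G2, which lacks the eIF4E-binding part and serves cap-independent initiation, was higher in all 3 CLK-labelled libraries (unadjusted p = 0.0805, adjusted p = 0.432). The cap-binding protein EIF4E and its relative EIF4E2 were the members of this group below 0. EIF4E measured 634, 625 and 643 CPM in the CLK-labelled group and 779, 824 and 773 CPM in the DMSO-labelled group, with no overlap, and its difference was -0.32 ± 0.18 (log2, SE; unadjusted p = 0.0893, adjusted p = 0.449). EIF4EBP1, which blocks eIF4E when it is not phosphorylated, ranged from 31.9 to 151 CPM within the DMSO-labelled group alone, and the 56.2 to 81.9 CPM of the other group lay inside that range.

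The 3 subunits of eIF2 had a median of -0.19, the same as that of eIF3 to 2 decimals, and none passed a test. EIF2S3, the gamma subunit that binds GTP and the initiator tRNA, was at 0.03 ± 0.17, and EIF2S1, the alpha subunit that stress kinases phosphorylate, was at -0.21 ± 0.21 and EIF2S2, the beta subunit, at -0.19 ± 0.26 (log2, SE). For EIF2S3, the most counted of them, the 95% confidence interval, -0.35 to 0.40, leaves out a change of 1 on the log2 scale in either direction. Of the 4 tested subunits of eIF2B, 3 were below 0, EIF2B5, the catalytic subunit, furthest at -0.67 ± 0.32 (log2, SE; unadjusted p = 0.0520). The poly(A)-binding proteins PABPC1 and PABPC4, which link the tail to eIF4G, were at -0.28 ± 0.19 and -0.21 ± 0.32 (log2, SE).

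Levels were also summed over the genes of a complex within each library. The eIF3 genes added up to 3957, 3553 and 3366 CPM in the CLK-labelled group and 4153, 4270 and 4251 CPM in the DMSO-labelled group, with no overlap. Without EIF3E and EIF3H, a choice made after their values were seen, the groups overlapped. The other 11 subunits added up to 2732, 2594 and 2243 CPM against 2577, 2537 and 2672 CPM. As both genes were left out together, this does not give the part of each. The eIF2 genes added up to 1366, 1206 and 1393 CPM against 1384, 1308 and 1419 CPM, which overlapped, and EIF2S3 held most of them. The eIF4F group added up to 3383, 3606 and 3108 CPM against 3137, 3133 and 3198 CPM, and SGC-CLK-1 replicate 3 was below all DMSO-labelled libraries. The scanning and joining factors added up to 1717, 1897 and 2012 CPM against 2319, 2086 and 3172 CPM, with no overlap and EIF5B as the largest part of the count. Without EIF5B, left out after its values were seen, they added up to 997, 1128 and 1174 CPM against 1260, 958 and 1376 CPM, which overlapped. The overlap came from DMSO replicate 2 alone, in which EIF5A was low, at 225 CPM against 476 and 510 CPM in DMSO replicates 1 and 3. Leaving out 1 gene does not give the part of each gene in the separation. Because genes differ in length, these sums weigh counts and do not compare amounts of the complexes.

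**Figure D5:**
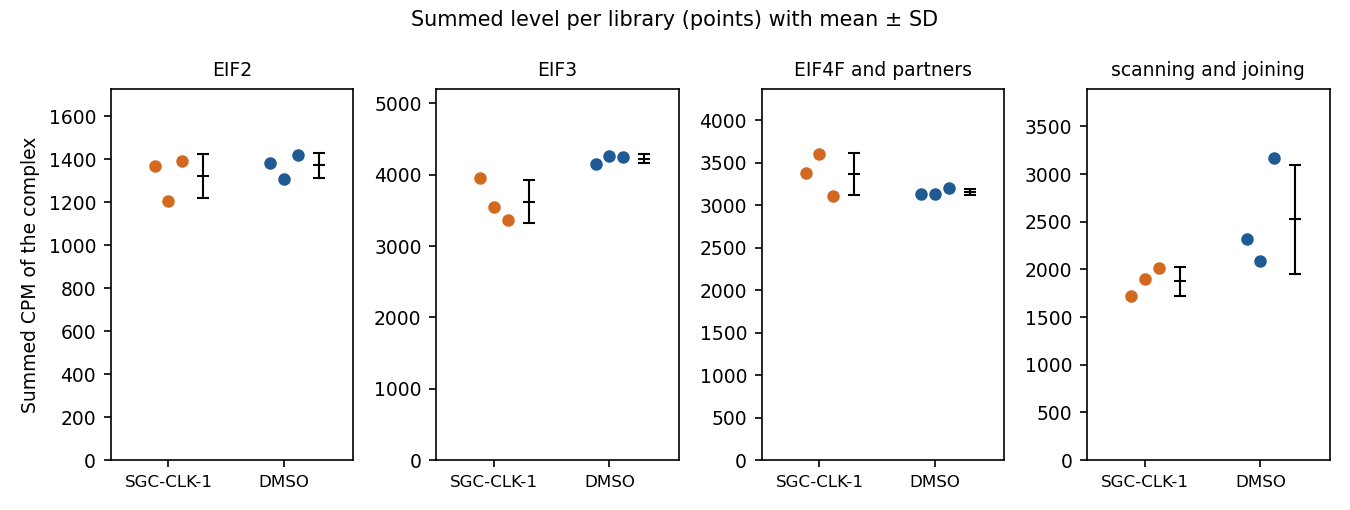
Summed CPM of the genes of 4 complexes in each library as points, with mean and SD beside each group of 3. The points of eIF3 and of the scanning and joining factors do not overlap between groups, and those of eIF2 and of the eIF4F group do.

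The ratio of summed counts between complexes needs no scaling between libraries. The eIF4F group had 0.855, 1.01 and 0.923 counts per eIF3 count in the CLK-labelled libraries and 0.755, 0.734 and 0.752 in the DMSO-labelled ones, with no overlap. The eIF2 genes had 0.345, 0.339 and 0.414 counts per eIF3 count against 0.333, 0.306 and 0.334, also without overlap. Both ratios have the same eIF3 counts as denominator, so they are not independent of each other. The summed CPM of eIF2 and of the eIF4F group each overlapped between the groups. The ratios were not taken again without EIF3E and EIF3H. They were chosen after the sums were seen and carry no test. The complex medians moved with single libraries. Without SGC-CLK-1 replicate 2 that of eIF3 was -0.32, that of eIF2 -0.06 and that of the eIF4F group 0.08. Without DMSO replicate 3 they were -0.12, -0.01 and 0.10, and without DMSO replicate 2 that of eIF3 was -0.30. With libraries scaled by total count alone the medians of eIF3, eIF2 and the eIF4F group were -0.12, -0.11 and 0.23, and without EIF3B-209 that of eIF3 was -0.095. Whether the complexes differ from each other was not tested.

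Below the level of genes, 13 of the 89 tested initiation factor transcripts had an unadjusted p under 0.05, where 18% of all tested transcripts did. Of these, 9 were lower in the CLK-labelled group and 4 higher, where 9.11% and 8.93% of all transcripts were. Besides EIF3B-209, the lower ones belonged to EIF3E (EIF3E-206, EIF3E-214 and EIF3E-218), EIF3H (EIF3H-201 and EIF3H-209), EIF3M (EIF3M-203) and EIF5B. The higher ones were EIF4G1-209, EIF4G2-201, EIF4G2-205 and EIF4G2-208. The 3 EIF4G2 transcripts had log2 fold changes of 0.49, 0.51 and 0.58, with 71, 50 and 54 counts of EIF4G2-201 against 40, 48 and 32, and as forms of 1 gene they can share reads, as can those of EIF3H. EIF3M-203, a protein-coding form, had 17, 8 and 9 counts against 19, 20 and 27, a difference of -1.06 ± 0.34 (log2, SE; adjusted p = 0.0780 in edgeR).

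The share of a gene's counts on each transcript could be tested for 20 of the genes, over 78 transcripts, with edgeR's diffSpliceDGE. None was past an adjusted or an unadjusted p of 0.05, where 0.277% and 1.72% of all 1805 genes were, and the smallest p was 0.0755, for EIF3M. No other tool was run for usage. In the test of transcript classes (protein coding, retained intron, nonsense-mediated decay, other), none of 11 genes was past an adjusted or an unadjusted p of 0.05, where 0.171% and 1.53% of 1173 genes were. EIF3B itself could not enter the usage test of single transcripts, because EIF3B-209 was its only transcript with enough counts.

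Retained introns were looked at across the members. Of 103 counted retained-intron transcripts of the initiation factors 8 were tested. Of these, 6 were below 0, where 51.8% of all tested retained-intron transcripts were. EIF3B-209 was 1 of 2 with an unadjusted p under 0.05, where 22% of all tested retained-intron transcripts had such a p. The other one was EIF3E-218 (ENST00000523674), with 16, 6 and 9 counts in the CLK-labelled group and 19, 23 and 16 in the DMSO-labelled group, a difference of -0.99 ± 0.34 (log2, SE; adjusted p = 0.103 in edgeR). Apart from EIF3B-209, the 7 others ranged from -0.99 to 0.37. Over all initiation factors, retained-intron transcripts held 7.15% ± 0.604 (SD, n = 3) of the counts in the CLK-labelled group and 8.11% ± 0.810 (SD, n = 3) in the DMSO-labelled group, and the libraries overlapped. Over all transcripts these shares were 8.81% ± 0.0233 and 8.66% ± 0.116 (SD, n = 3), higher in every CLK-labelled library, the opposite direction to the overlapping means of the initiation factors. Without EIF3B-209 the means of the initiation factors were 7.03% ± 0.650 and 7.30% ± 0.761 (SD, n = 3), which also overlapped. Transcripts marked for nonsense-mediated decay held 2.58% ± 0.0700 of the initiation factor counts in the CLK-labelled group and 2.21% ± 0.134 in the DMSO-labelled group (SD, n = 3), with no overlap. Over all transcripts their shares were 7.14% ± 0.0181 and 6.96% ± 0.0483 (SD, n = 3), which did not overlap either.

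Other genes with at least 10 retained-intron counts a library on average were read in the same way. The share of the gene's counts on retained-intron transcripts differed by fewer percentage points than in EIF3B. In EIF1 it was 45.5% ± 0.551 (SD, n = 3) in the CLK-labelled group and 44.7% ± 1.68 in the DMSO-labelled group, in EIF3E 20.8% ± 1.76 and 20.5% ± 1.49, and in EIF4G2 15.1% ± 2.32 and 15.5% ± 1.75. EIF2B5 had 44.3% ± 1.71 and 47.2% ± 10.5, EIF3L 9.70% ± 1.99 and 9.88% ± 2.90, and EIF4B 4.06% ± 0.832 and 4.24% ± 2.32. The largest difference in percentage points after that of EIF3B was in EIF3C, with 14.1% ± 2.17 and 20.0% ± 3.21, where libraries overlapped (exact permutation test, p = 0.2). EIF5B had 2.57% ± 1.73 and 4.09% ± 0.157. None of the 9 genes with EIF3B could reach a p below 0.1 in a comparison of 3 with 3. Of the transcripts marked for nonsense-mediated decay, EIF4B-210 and EIF4G1-222 were tested, at 0.32 ± 0.38 and 0.69 ± 0.38 (log2, SE), and neither passed a test.

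Other genes of the pathway were read from a list of 40, of which 28 were tested. The list held further initiation factors, eIF2 kinases and phosphatase regulators, mTOR and MNK signalling, elongation and termination. None was past an adjusted p of 0.05 in edgeR or in DESeq2, 4 were lower and 1 higher at an unadjusted p under 0.05, where 6.97% and 6.89% of all genes were, and their median was 0.11 with 17 above 0. PAIP1, which stimulates translation through PABPC1, was higher at 0.77 ± 0.32, and PAIP2, which displaces PABPC1 from the tail, was lower at -0.74 ± 0.28 (log2, SE; adjusted p = 0.300 and 0.247). PAIP1 measured 115, 128 and 209 CPM in the CLK-labelled group and 112, 88.7 and 60.0 CPM in the DMSO-labelled group, with no overlap. PAIP2 measured 165, 150 and 109 CPM against 322, 232 and 160 CPM, and SGC-CLK-1 replicate 1 was above DMSO replicate 3. Its paralogue PAIP2B, named after its values were seen, had no overlap in the opposite direction, with 44.8, 46.9 and 39.5 CPM against 33.6, 29.6 and 26.7 CPM, at 0.54 ± 0.42 (log2, SE; unadjusted p = 0.216). DENR, a factor of reinitiation and ribosome recycling, was at -0.71 ± 0.29, MLST8, a subunit of the mTOR complexes, at -0.84 ± 0.30, and EEF1D, of the elongation factor 1 complex, at -0.55 ± 0.21. The eIF4A helicases, EIF4A1 and EIF4A2, which complete eIF4F, were at 0.01 ± 0.22 and 0.18 ± 0.26 (log2, SE).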

How the data were processed

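RM82 cells were sequenced by the authors as oligo(dT)-primed, UMI-tagged cDNA on the Oxford Nanopore platform. The authors mapped reads to human transcripts (hg38, Ensembl 98) with minimap2 (2.22 in the submitters' processing notes), kept secondary alignments, deduplicated UMIs and deposited counts per transcript without normalization, so that a read can count on several transcripts. Which UMI correction made these files is not given in the sources used here. Transcripts were matched by identifier without version to GENCODE 44 (331 of the 391 member transcripts have the same version). Counts were summed to genes. Filtering (filterByExpr, minimum count 10, total 15), TMM scaling, the quasi-likelihood F-test and diffSpliceDGE were run in edgeR 4.0.16 (R 4.3.3) with Benjamini-Hochberg adjustment and a threshold of 0.05. The SE of a log2 fold change was taken as its size over the root of F. DESeq2 1.42.0 was an alternative. Shares were compared with exact two-sided permutation tests (scipy 1.17.1). The functions were tested on simulated counts.

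The members, lists and tests were chosen with earlier results of these data known. Named were transcripts past the adjusted threshold, genes with an unadjusted p under 0.05, the most counted gene of each complex, genes with a mean of at least 10 retained-intron counts a library, and pathway genes with an unadjusted p under 0.05. The genes EIF4E and EIF4G2, the remaining members given with values, and EIF4A1 and EIF4A2 were named after their values were seen. Total counts lay between 362826 and 666702. The replicate pairs of a group differed by 1.23 to 2.26 times sampling noise (chi-square per degree of freedom), so none was treated as a library deposited more than once. This does not show whether they came from separate cultures. Other libraries of the series were not used here.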

Additional observations from a re-analysis of the deposited data

How the results depend on the processing

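EIF3E, EIF3H, EIF5B, EIF6, EIF4B, PABPC1, EIF3B-209 and the medians of eIF3 and the eIF4F group had the same sign under every alternative run, although with single libraries left out EIF4B ranged from 0.050 to 0.29 and PABPC1 from -0.42 to -0.16. So did EIF3B and the median of eIF2, but without EIF3B-209 the EIF3B sum was at -0.061 ± 0.395 (log2, SE) and without DMSO replicate 3 the median of eIF2 was at -0.0076, both near 0. The difference in EIF3B retained-intron share turned from -18.1 to 3.95 percentage points with EIF3B-209 left out (added after seeing the data). The direction turned for EIF2B4 (0.082 and 0.22 without SGC-CLK-1 replicate 3 and DMSO replicate 3, within -0.34 to 0.22 over single libraries left out, and 0.0016 from the highest-counted transcript, added after seeing the data), for EIF2S3 (-0.026 to 0.060, negative without the same libraries) and for EIF4EBP1 (-0.89 to 0.11, positive without DMSO replicate 1). The number of genes called among all genes was 28 with library size only, 64 with at least 10 counts in every library, 169 with no filter, 107 with DESeq2, 148 from the highest-counted transcript and 1 to 21 with single libraries left out. Of the initiation factors, 2 were called with no filter (EIF3B, adjusted p = 0.0449, and EIF5B, 0.0384), 1 with DESeq2 and 2 from the highest-counted transcript. These last were EIF5B and EIF3B, whose highest-counted transcript is EIF3B-209 itself. Among all transcripts 173 were called with at least 10 counts in every library, 162 with no filter, 113 with DESeq2 and 81 to 363 with single libraries left out. Of the initiation factor transcripts 0 were called with at least 10 counts and with DESeq2, neither of which gave EIF3B-209 an adjusted p, and 1 to 4 with single libraries left out. Usage calls among all genes were 1 with at least 10 counts, 2 with no filter and 1 to 5 with single libraries left out, and class usage calls 1 with at least 10 counts and 1 to 2.

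The median of eIF2 ranged from -0.26 to -0.0076 and that of eIF3 from -0.32 to -0.12 with single libraries left out, and that of eIF3 was -0.095 without EIF3B-209 (added after seeing the data). The median of the eIF4F group was 0.23 with library size only, 0.24 from protein-coding transcripts and 0.31 from the highest-counted transcript. The cause of these shifts was not tested. Same-numbered libraries of the groups deviated together only weakly (r = 0.0639, 0.0243 and 0.0313). The same number was the best match for SGC-CLK-1 replicates 1 and 2, and DMSO replicate 2 (0.0358) for SGC-CLK-1 replicate 3. The labels do not say that a number marks a shared batch, and the libraries were not treated as pairs. With the replicate number as a block, edgeR called 36 genes, none of them an initiation factor, and 427 transcripts, 6 of them of initiation factors. The 6 belonged to EIF3B, EIF3E, EIF3H and EIF5B, and EIF3B-209 was at -2.82. The blocked difference in EIF3B retained-intron share was -18.1 points (exact permutation of signs, p = 0.5). Counts of 19 to 84 on EIF3B per library limit its shares.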

Other observations

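EIF3B-209 was 1 of 112 tested retained-intron transcripts with a run of at least 8 genome-encoded A within 20 bases of the end, a count made after seeing the data. Of the 112, 5 were lower and 1 higher in the CLK-labelled group at an adjusted p under 0.05 in edgeR (5.36%), and of the 533 without such a run 28 were lower and 9 higher (6.94%). Named for their values, the lower ones among the 112 were ENST00000429810 (-3.76, log2), EIF3B-209 and 3 transcripts of CTNNB1, the gene of beta-catenin. The CTNNB1 transcripts had log2 fold changes of -2.53, -2.57 and -2.52, and as forms of 1 gene they can share reads, so the 5 are not independent. The median log2 fold change was 0.0018 with such a run and -0.016 without. Whether the run bears on the difference was not tested.

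Processed pseudogenes of the initiation factors took few counts. There were 25 with counts, adding up to 69, 34 and 39 counts in the CLK-labelled libraries and 44, 41 and 41 in the DMSO-labelled ones. Of the expressed copies, EIF3CL was tested, at 0.19 (log2), and EIF5AL1, EIF2S3B, PABPC3 and EIF1B had 39, 43, 9 and 19 counts over the 6 libraries.

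Chosen after their values were seen, EIF2AK3, the eIF2 kinase of the endoplasmic reticulum, had 7, 4 and 10 counts in the CLK-labelled libraries and 2, 0 and 0 in the DMSO-labelled ones, and PPP1R15A, which brings the phosphatase to eIF2, had 0, 1 and 0 against 3, 5 and 2. Both were below the filter and were not tested.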
